A study of Mus musculus with 27 samples.

Results

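Igf2, H19, Dlk1, Meg3, Magel2, Cdkn1c, Plagl1, Peg3, Grb10, and Mest are imprinted genes, each transcribed mainly from the chromosome inherited from 1 parent. They are often grouped as a growth network of fetal and newborn life. These 10 symbols were looked up among the 22855 genes of the count tables and all 10 were found, in both cardiac fibroblasts and whole hearts. They were chosen on these measurements, by their counts relative to the library total, which were high at postnatal day 1 and low later, with Magel2 and Dlk1 as the clearest cases. Their fall after postnatal day 1 is therefore described below without a test, and tests are given only for later ages and for the difference between the tissues.

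Imprinted genes lie in clusters in which a control region, methylated on only 1 parental chromosome, decides which genes of the cluster are read from that chromosome. Paternally expressed members such as Igf2 and Dlk1 tend to promote growth, and maternally expressed members such as H19, Cdkn1c, and Grb10 tend to restrain it. Several of these genes are known to be abundant in fetal tissues and to be shut down together after birth. Counts per gene do not separate the parental copies, so the values below are the sum of both.

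RNA was measured by RNA-Seq in C57Bl/6 mice of 5 ages, which were postnatal day 1, the 4th and the 14th week, and 1 and 1.5 years. The labels give no transgene and no treatment for any sample. The design text of the series refers to myocardial infarction, which no sample label carries, and the samples are described here as their labels give them. Cardiac fibroblasts were sorted by flow cytometry on PDGFRα from ventricles freed of atria and valves, with 3 samples at postnatal day 1, 3 at 4 weeks, and 2 at each of the 3 later ages. Whole hearts had 3 samples at each of the 5 ages, and the study states that hearts and sorted cells came from the same animals without saying which sample belongs to which.

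Totals ran from 54615898 to 76758831 counts in the 12 fibroblast samples and from 46091271 to 67984404 in the 15 hearts. Mitochondrial genes took between 1.74% and 9.18% of the counts in fibroblasts and between 10.8% and 34.5% in hearts. The sorted cells matched their label in the sorting antigen and in cardiomyocyte markers. Pdgfra, the sorting antigen, was at 689 to 1189 counts per 1000000 (CPM) in fibroblasts and at 32.9 to 68.3 CPM in hearts, and 7 cardiomyocyte markers summed to 13.5 to 646 CPM in fibroblasts against 39428 to 100847 CPM in hearts. That sum was highest in fibroblasts of postnatal day 1 (596 to 646 CPM) and did not exceed 152 CPM at any later age, and its part in the results was not tested. Other cell types were less depleted. The sum of 8 endothelial markers was 1120 to 1332 CPM in 14-week fibroblasts against 759 to 807 CPM in hearts. It was 517 to 1660 against 1131 to 1333 CPM at 4 weeks, and below hearts at postnatal day 1 and 1 year (390 to 580 and 424 to 577 CPM). At 1.5 years the endothelial sum was 277 and 1125 CPM in fibroblasts against 735 to 791 CPM in hearts. Leukocyte markers, 6 genes, lay above hearts only at postnatal day 1 (72.5 to 139 against 42.7 to 46.7 CPM). Their part was not tested. Sex is not in the labels. Xist, which is transcribed in female cells, was at most 0.641 CPM at 14 weeks and 1 year, and Ddx3y, a Y-linked gene, was at most 0.454 CPM at 1.5 years, so sex and age cannot be told apart in any comparison of 1.5 years with 14 weeks. At 4 weeks both transcripts were present in every sample, with Xist at 329 to 518 CPM and Ddx3y at 21.5 to 42.7 CPM in fibroblasts and at 7.13 to 155 CPM and 1.80 to 37.1 CPM in hearts, so the comparisons of 14 with 4 weeks, and the test of their difference between tissues, also hold a change in sex composition that cannot be told apart from age. At postnatal day 1 both transcripts were present in every sample too. Xist was then at 121 to 242 CPM and Ddx3y at 27.7 to 31.9 CPM in fibroblasts, and at 138 to 370 CPM and 5.15 to 29.6 CPM in hearts. The part of sex composition in the changes from postnatal day 1 to 4 weeks was not tested. In bulk samples, fewer cells of a type and less RNA per cell cannot be told apart either.

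Levels are CPM after scaling by the trimmed mean of M values (TMM) over all 27 samples. Fold changes are on the log2 scale with their standard error (SE), and a gene was called at a Benjamini-Hochberg adjusted p under 0.05 in edgeR's quasi-likelihood F test over all genes tested. All 10 genes passed the filter on low counts. Magel2 passed it only through postnatal day 1.

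The promoters of the genes with the sharpest fall, Dlk1 and Magel2, and of Peg3, which was higher in fibroblasts at all 5 ages, are shown as examples of the sequence these loci carry at their starts, with each CG dinucleotide, the site of the methylation that marks imprints, in capitals. They are RefSeq sequences of the GRCm38.p6 assembly, written 5′ to 3′ on the strand of the gene. Dlk1 and Magel2 are shown for up to 250 bases before their start, at chr12:109452573-109452822 and chr7:62376729-62376978, both on the plus strand. Peg3 is shown for the 146 bases at chr7:6730432-6730577 on the minus strand, which hold no annotated exon and lie between the starts of Peg3 and of Usp29, a gene read in the opposite direction.
Dlk1: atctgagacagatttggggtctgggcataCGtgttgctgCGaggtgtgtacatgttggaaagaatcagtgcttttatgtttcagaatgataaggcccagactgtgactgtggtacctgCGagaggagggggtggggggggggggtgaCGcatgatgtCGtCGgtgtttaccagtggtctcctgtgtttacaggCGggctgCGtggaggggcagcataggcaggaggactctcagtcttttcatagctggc
Magel2: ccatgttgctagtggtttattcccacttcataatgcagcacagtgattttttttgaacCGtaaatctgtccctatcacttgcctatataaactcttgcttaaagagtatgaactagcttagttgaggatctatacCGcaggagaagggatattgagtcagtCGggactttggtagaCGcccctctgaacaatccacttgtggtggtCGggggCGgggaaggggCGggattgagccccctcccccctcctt
Peg3: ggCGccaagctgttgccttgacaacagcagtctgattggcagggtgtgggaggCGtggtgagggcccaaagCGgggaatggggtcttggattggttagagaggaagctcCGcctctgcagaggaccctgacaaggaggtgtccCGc

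The Dlk1 stretch held 8 CG dinucleotides, the Magel2 stretch 7, and the shorter Peg3 stretch 5. The median of all 32851 RefSeq windows, counted over the 250 bases before a start, was 6. Short motifs were searched on both strands. The TATA box, TATAAA, was found once in the Magel2 stretch and in 12.4% of all windows. The SP1 motif GGGCGG was found 2 times in the Magel2 stretch and in 32.7% of all windows. The YY1 motif CCATNTT was found once in the Magel2 stretch and in 12.4% of all windows, and the CCAAT box 2 times in the Peg3 stretch and in 33.8% of all windows. The letters GGGGCC were in 22.0% of all windows and the E-box CAGGTG in 17.2%, and neither was in any of the 3 stretches. The full 250 bases of the Peg3 window, of which the stretch is a part, held 8 CG dinucleotides and GGGGCC 2 times. The Dlk1 stretch held none of these motifs. A match is a match of letters only. Promoter windows were found for 8 of the 10 genes, and H19 and Cdkn1c had none.

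Of the 10 genes, 4 also carry microRNA genes on their own strand. The 5p arm of 1 microRNA per host is shown with its seed, bases 2 to 8, in capitals.
miR-483-5p, in an intron of Igf2: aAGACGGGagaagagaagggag
miR-675-5p, in an exon of H19: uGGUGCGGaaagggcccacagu
miR-770-5p, in an exon of Meg3: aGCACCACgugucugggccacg
miR-335-5p, in an intron of Mest: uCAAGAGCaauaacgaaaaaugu

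No 2 of the 9 mature microRNAs in these hosts shared a seed. Mature microRNAs were not measured by these libraries, and the values below are those of the host transcripts.

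**Figure D1:**
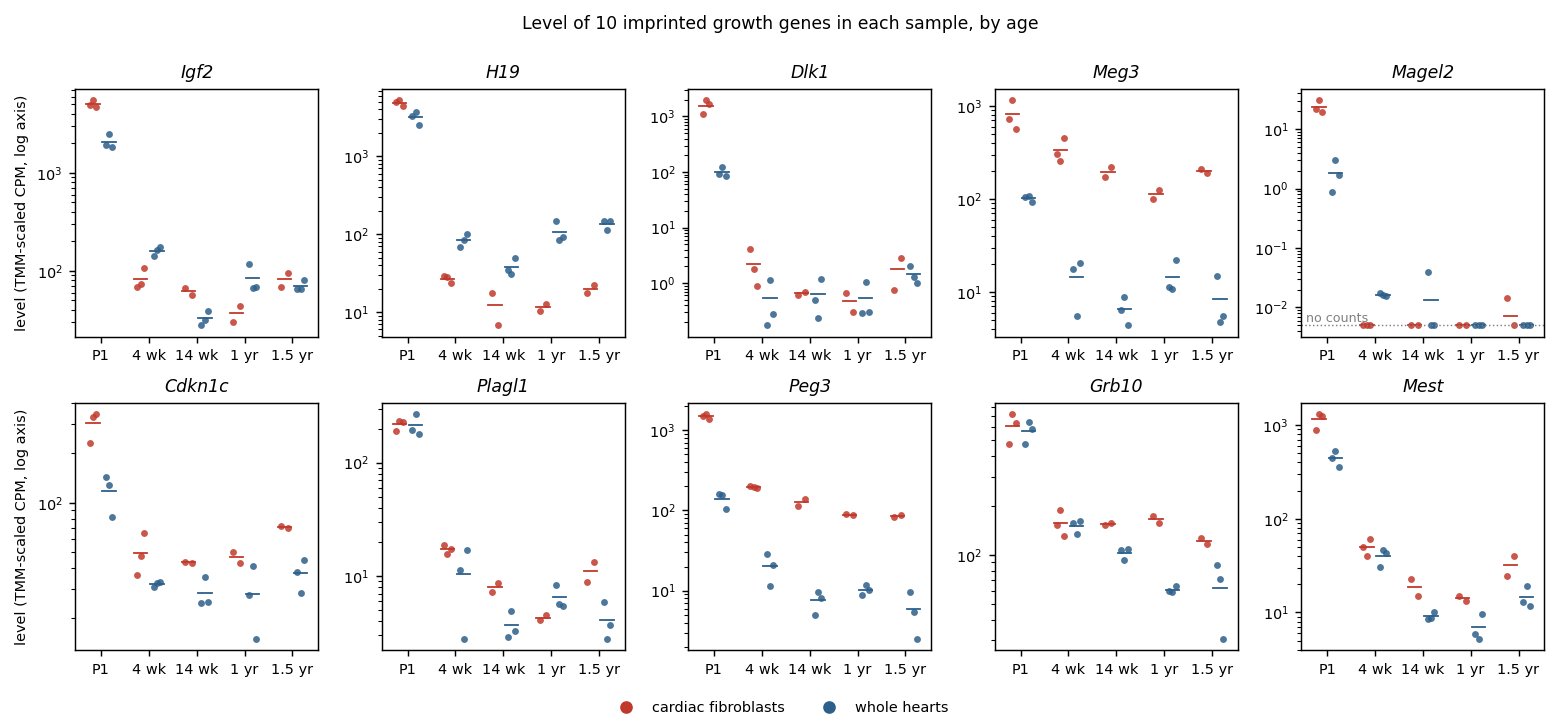
Level of each of the 10 genes in each sample (TMM-scaled CPM on a log axis) at the 5 ages, cardiac fibroblasts in red and whole hearts in blue. Points are samples, short lines are group means, and the dotted line in the Magel2 panel marks samples with no counts. In both tissues every sample of postnatal day 1 lies above every 4-week sample for all 10 genes.

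At postnatal day 1 the 10 genes together took 1.85% to 2.15% of all fibroblast counts and 0.742% to 1.08% of all heart counts. At 4 weeks they took 0.0988% to 0.124% and 0.0416% to 0.0547%. All 10 genes had no overlap between the ages in either tissue, lower at 4 weeks, a pattern shown by 14.0% of all genes tested in fibroblasts and 21.5% in hearts, and nothing is read from this count because the genes were chosen for it. The median member stood at 6.14% of its postnatal day 1 level at 4 weeks in fibroblasts and at 8.35% in hearts.

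Igf2 encodes insulin-like growth factor 2, the main growth factor of the fetus, and lies on chromosome 7 (142650766 to 142666816, mm10, minus strand). Igf2 was at 4998, 5513, and 4725 CPM in the 3 fibroblast samples of postnatal day 1, and at 1951, 2489, and 1832 CPM in the 3 hearts. At 4 weeks its level was 67.6, 74.0, and 107 CPM in fibroblasts and 142, 161, and 177 CPM in hearts. The order of the tissues was thus the opposite at the 2 ages, with no overlap at either. H19, the long noncoding RNA that shares enhancers and a control region with Igf2, lies on the same chromosome (142575529 to 142578143, minus strand). H19 was at 5059, 5242, and 4405 CPM in fibroblasts and 3285, 3716, and 2516 CPM in hearts at postnatal day 1. At 4 weeks it was at 29.0, 28.6, and 23.4 CPM in fibroblasts and 68.7, 84.8, and 99.7 CPM in hearts. The mean of postnatal day 1 was 61.4 times that of 4 weeks for Igf2 and 181 times for H19 in fibroblasts, and 13.1 and 37.6 times in hearts.

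Dlk1, a membrane protein related to the Notch ligands that holds back differentiation, lies on chromosome 12 (109452823 to 109463336, plus strand). Its level at postnatal day 1 was 1099, 1949, and 1644 CPM in fibroblasts and 92.8, 123, and 86.5 CPM in hearts. At 4 weeks it was 4.04, 1.81, and 0.887 CPM in fibroblasts and 0.175, 1.14, and 0.280 CPM in hearts. Dlk1 had the largest ratio of postnatal day 1 to 4 weeks among the 9 genes with counts at 4 weeks in fibroblasts, at 696 times in fibroblasts and 189.8 times in hearts (log2 change −9.43 ± 0.67 and −7.54 ± 0.73, SE). Meg3, the maternally expressed long noncoding RNA of the same cluster (109541001 to 109571726, plus strand), had the smallest ratio in fibroblasts, at 2.42 times. Meg3 was at 724, 1151, and 568 CPM at postnatal day 1 and at 303, 253, and 452 CPM at 4 weeks in fibroblasts. In hearts it was at 105, 107, and 93.7 CPM and then at 17.6, 5.52, and 20.6 CPM, a ratio of 6.99.

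Magel2, which encodes a partner of ubiquitin ligases in vesicle recycling and is 1 of the genes lost in Prader-Willi syndrome, lies on chromosome 7 (62377010 to 62381640, plus strand). Magel2 was at 22.2, 30.6, and 19.2 CPM in fibroblasts of postnatal day 1 (1487 to 2383 counts) and at 0.883, 3.00, and 1.66 CPM in hearts (72 to 261 counts). Not 1 count was found in the 3 fibroblast samples of 4 weeks, and each heart of that age had 1 count. Against a limit of 3 counts per sample, the level of postnatal day 1 was at least 689-fold higher in fibroblasts and at least 37.7-fold higher in hearts. In the 15 samples of later ages no sample had more than 2 counts, so that no fold is given between those ages.

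Plagl1, a zinc finger transcription factor on chromosome 10 (13060504 to 13131694, plus strand), was at 192, 235, and 229.9 CPM in fibroblasts and 193, 268, and 179 CPM in hearts at postnatal day 1. At 4 weeks it was at 18.8, 15.8, and 17.2 CPM in fibroblasts and 11.2, 2.77, and 17 CPM in hearts, where the second sample stood well below the others. Peg3, a large zinc finger protein on chromosome 7 (6703892 to 6730431, minus strand), was at 1501, 1579, and 1384 CPM and then 204, 197, and 189.8 CPM in fibroblasts. Its level in hearts was 159, 154, and 105 CPM and then 28.7, 11.6, and 21.1 CPM. The ratio of postnatal day 1 to 4 weeks was 12.7 for Plagl1 and 7.56 for Peg3 in fibroblasts, and 20.7 and 6.82 in hearts. Mest, which encodes an enzyme of the hydrolase fold and lies on chromosome 6 (30723547 to 30748465, plus strand), was at 886, 1311, and 1256 CPM and then 50.5, 40.3, and 60.8 CPM in fibroblasts. In hearts Mest was at 446, 531, and 356 CPM and then 30.8, 46.8, and 43.0 CPM. The ratio was 22.8 in fibroblasts and 11.05 in hearts.

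The 2 maternally expressed growth restrainers with protein products had smaller ratios. Cdkn1c, the cyclin-dependent kinase inhibitor p57, lies on chromosome 7 (143458339 to 143461050, minus strand). Its level was 230.4 to 345 CPM at postnatal day 1 and 36.3 to 65.2 CPM at 4 weeks in fibroblasts, a ratio of 6.10, and 81.5 to 142 CPM and 30.8 to 33.1 CPM in hearts, a ratio of 3.65. Grb10, an adaptor that damps signaling from the insulin and IGF1 receptors, encoded on chromosome 11 (11930508 to 12038683, minus strand), was at 476 to 723 CPM and then 131 to 189 CPM in fibroblasts, a ratio of 3.88. In hearts it was at 476 to 644 CPM and then 133 to 159.9 CPM, a ratio of 3.81. Grb10 therefore stood at nearly the same level in both tissues at both ages.

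From 4 to 14 weeks, 3 of the 10 genes fell in fibroblasts, where 2.08% of all genes tested fell and 1.79% rose. Plagl1 fell to 7.23 and 8.60 CPM at 14 weeks (log2 change −1.12 ± 0.19, SE, adjusted p = 0.00779, edgeR). Mest fell to 22.6 and 14.8 CPM (−1.43 ± 0.28, adjusted p = 0.0147, edgeR), and Peg3 to 114 and 140.4 CPM (−0.63 ± 0.13, adjusted p = 0.0167, edgeR). Both 14-week samples lay below all 3 samples of 4 weeks for each of the 3 genes. In the same samples 6 leukocyte markers summed to 172.5 to 308 CPM at 4 weeks and 27.9 to 40.2 CPM at 14 weeks, and 6 smooth muscle and pericyte markers to 64.1 to 148 CPM and 292 to 393 CPM, and their part was not tested. With 1 of the 2 samples of 14 weeks left out, the remaining sample being assumed to vary like the other groups, Plagl1 had an adjusted p of 0.126 without replicate 4 and 0.0693 without replicate 6, and Peg3 of 0.292 and 0.0695 (edgeR). Mest had an adjusted p of 0.196 without replicate 6 of 14 weeks, and Peg3 of 0.0509 without replicate 1 of 4 weeks (edgeR).

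H19 in fibroblasts was at 17.6 and 6.79 CPM at 14 weeks, below all 3 samples of 4 weeks, and did not pass (−1.14 ± 0.31, adjusted p = 0.0643, edgeR), although it did without replicate 4 of 14 weeks (adjusted p = 0.00219). Igf2, at 66.03 and 57.2 CPM, was just below the range of 4 weeks and did not pass (−0.43 ± 0.24, adjusted p = 0.417, edgeR). Dlk1 (−1.75 ± 0.64), Meg3 (−0.79 ± 0.30), Cdkn1c (−0.19 ± 0.23), and Grb10 (−0.02 ± 0.18) did not pass either.

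In hearts, 3 genes fell over the same interval, where 0.85% of all genes tested fell and 0.756% rose. Igf2 fell to 27.8, 31.8, and 38.6 CPM (−2.29 ± 0.21, SE, adjusted p = 4.3e-05, edgeR). Mest fell to 8.47, 8.82, and 10.2 CPM (−2.13 ± 0.26, adjusted p = 0.000338, edgeR), and H19 to 34.3, 30.6, and 49.3 CPM (−1.15 ± 0.23, adjusted p = 0.0201, edgeR). No 14-week heart reached the lowest 4-week heart for any of the 3 genes. The call of H19 was lost without replicate 1 of 14 weeks (adjusted p = 0.106), without replicate 2 of 14 weeks (0.127), and without replicate 3 of 4 weeks (0.107).

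Peg3 in hearts was at 4.93, 9.60, and 8.17 CPM at 14 weeks and Plagl1 at 2.89, 4.94, and 3.24 CPM, and neither passed (−1.44 ± 0.40, adjusted p = 0.0940, and −1.49 ± 0.46, adjusted p = 0.130, edgeR). Without replicate 2 of 4 weeks, the low sample named above, both passed (adjusted p = 0.0441 and 0.00490), and Peg3 passed with a transcript length term (adjusted p = 0.0131). Fibroblast markers, 8 genes, summed to 1230 to 1624 CPM in hearts at 4 weeks and to 799.6 to 965 CPM at 14 weeks, and endothelial markers, also 8 genes, to 1131 to 1333 CPM and 759 to 807 CPM. Their part in these changes was not tested.

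Mest was the gene called in both tissues. The change of Igf2 from 4 to 14 weeks differed between the tissues, by 1.86 ± 0.33 on the log2 scale as fibroblasts minus hearts (adjusted p = 0.00662, edgeR interaction term), and 0.692% of all genes passed that test. No other of the 10 genes passed it. Without replicate 4 of 14-week fibroblasts the difference in Igf2 was 1.76 (adjusted p = 0.0560).

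**Figure D2:**
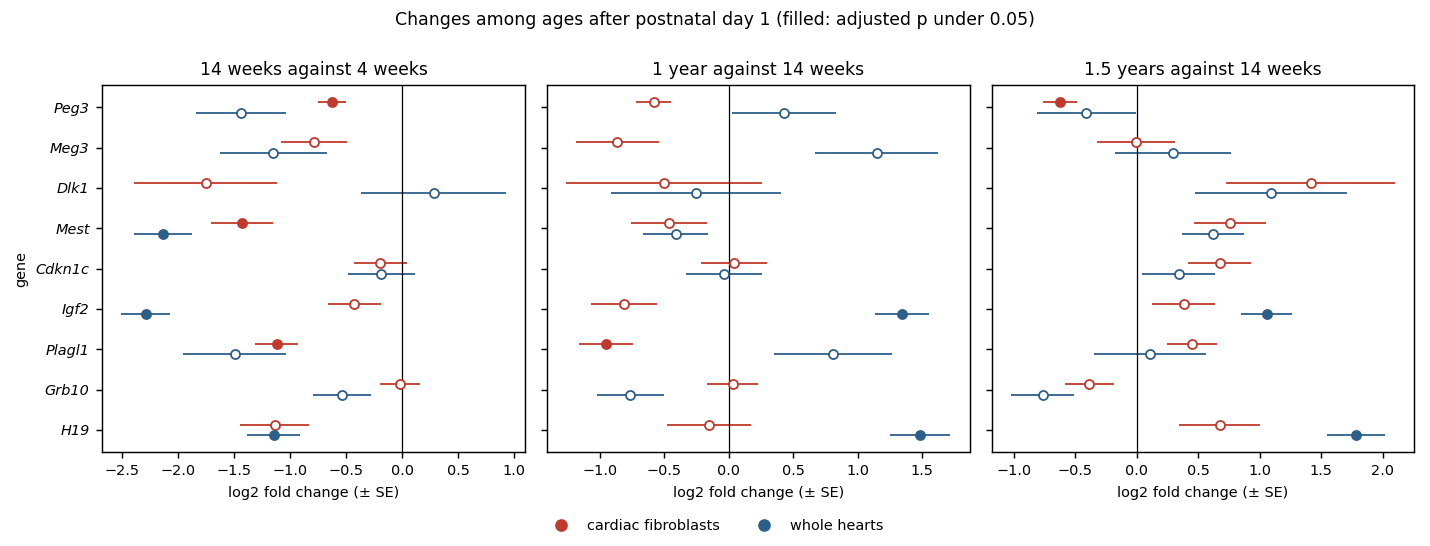
Log2 fold changes (points) with their SE (bars) for 9 genes between ages after postnatal day 1, cardiac fibroblasts in red and whole hearts in blue, with filled points at an adjusted p under 0.05. Magel2 is left out because it had at most 2 counts in any sample of these ages. Igf2 in hearts lies at −2.29 from 4 to 14 weeks and at 1.34 and 1.06 in the 2 later comparisons.

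From 14 weeks to 1 year, Igf2 and H19 rose in hearts, where 0.389% of all genes tested rose and 0.583% fell. Igf2 was at 118, 66.5, and 68.0 CPM at 1 year (1.34 ± 0.21, SE, adjusted p = 0.00913, edgeR) and H19 at 148, 83.3, and 92.2 CPM (1.48 ± 0.24, adjusted p = 0.0100, edgeR). All 3 hearts of 1 year lay above all 3 of 14 weeks for both genes, and replicate 1 of 1 year was the highest for both. Without it the changes were 1.03 for Igf2 (adjusted p = 0.0537) and 1.20 for H19 (adjusted p = 0.0561). Without replicate 1 of 14 weeks they were 1.24 (adjusted p = 0.0633) and 1.41 (adjusted p = 0.0670), and without replicate 2 of 14 weeks the change of H19 was 1.35 (adjusted p = 0.0613, edgeR).

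The 2 genes also rose from 14 weeks to 1.5 years in hearts, where 4.91% of all genes tested rose and 7.86% fell. Igf2 was at 65.9, 64.9, and 81.5 CPM (1.06 ± 0.21, adjusted p = 0.00393, edgeR) and H19 at 148, 112, and 149 CPM at 1.5 years (1.78 ± 0.24, adjusted p = 0.000555, edgeR). Both calls held without any 1 sample, with an adjusted p of at most 0.0260 for Igf2 and 0.00406 for H19. Fibroblast markers in hearts summed to 861 to 1298 CPM at 1 year and to 1218 to 1429 CPM at 1.5 years, above the 14-week range at 1.5 years. In hearts 6 leukocyte markers summed to 212.5 to 245.5 CPM at 14 weeks, 315 to 436 CPM at 1 year, and 369.5 to 493 CPM at 1.5 years. At the same ages 4 red cell markers summed to 315 to 405 CPM, 411 to 775 CPM, and 765 to 1832 CPM, and mitochondrial genes took 27.7% to 34.5%, 29.2% to 33.2%, and 18.5% to 26.5% of the counts. The part of these in the rise of Igf2 and H19 was not tested. Across 13111 genes, the log2 change of 1.5 years against 14 weeks in hearts had a Spearman's rho of −0.55 with the longest transcript length, which was 4722 bases for Igf2 and 2286 bases for H19 against a median of 3014 bases over all genes. With a transcript length term the changes were 1.55 for Igf2 (adjusted p = 0.00640) and 1.69 for H19 (adjusted p = 0.00238), and Meg3 passed as well (1.33, adjusted p = 0.0284).

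In fibroblasts, Plagl1 fell from 14 weeks to 1 year, to 4.05 and 4.52 CPM (−0.95 ± 0.21, adjusted p = 0.0397, edgeR), where 0.474% of all genes tested fell and 1.31% rose. This call was lost without any 1 of the 4 samples of the 2 ages (adjusted p from 0.147 to 0.387) and with a transcript length term (−0.81, adjusted p = 0.0897). Peg3 at 90.6 and 86.8 CPM narrowly missed (−0.58 ± 0.14, adjusted p = 0.0517, edgeR). From 14 weeks to 1.5 years Peg3 fell, to 81.6 and 87.4 CPM (−0.62 ± 0.14, adjusted p = 0.0316, edgeR), where 0.816% of all genes fell and 1.91% rose, and this call too was lost without any 1 of the 4 samples (adjusted p from 0.0960 to 0.347) and with a transcript length term (−0.43, adjusted p = 0.191). Igf2 and H19, at 68.4 and 96.1 CPM and at 17.5 and 22.5 CPM at 1.5 years, did not pass in fibroblasts (0.38 ± 0.26, adjusted p = 0.539, and 0.67 ± 0.33, adjusted p = 0.395, edgeR), although H19 did without replicate 4 of 14 weeks (1.54, adjusted p = 0.0219). Whether the changes from 14 weeks to 1.5 years differed between the tissues was tested for all 10 genes, and none passed, with adjusted p = 0.346 for Igf2 and 0.197 for H19 (edgeR interaction term), where 2.71% of all genes did. DESeq2 called none either, and at an unadjusted p under 0.05 edgeR had 2, H19 and Magel2, the latter at the limit of detection. Without replicate 6 of 14-week fibroblasts H19 passed that test (difference −1.65, adjusted p = 0.0446).

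Grb10 in hearts was at 107, 92.6, and 109 CPM at 14 weeks, 60.1, 59.4, and 64.4 CPM at 1 year, and 86.5, 71.6, and 30.6 CPM at 1.5 years. All 6 later hearts lay below the 3 of 14 weeks, but neither comparison passed (−0.76 ± 0.26 for each, adjusted p = 0.176 and 0.0622, edgeR). Without replicate 1 of 1.5 years the second did (−1.07, adjusted p = 0.00986). Cdkn1c in fibroblasts was at 72.0 and 70.5 CPM at 1.5 years, above the 42.9 to 50.6 CPM of 14 weeks and 1 year, and did not pass against 14 weeks (0.68 ± 0.26, adjusted p = 0.237, edgeR).

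**Figure D3:**
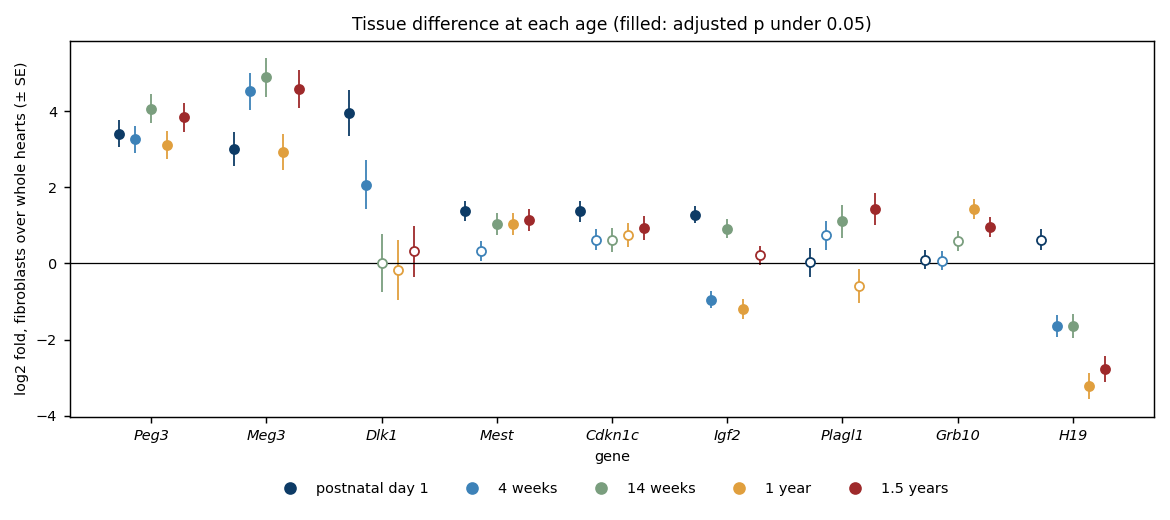
Log2 fold of cardiac fibroblasts over whole hearts (points) with its SE (bars) for 9 genes at each of the 5 ages, with filled points at an adjusted p under 0.05; Magel2 is left out because it had counts above the limit only at postnatal day 1. Peg3 and Meg3 lie between 2.93 and 4.90 at every age, and H19 lies between −1.64 and −3.23 at the 4 later ages.

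Fibroblasts and hearts were next compared at each age. At postnatal day 1, 7 of the 10 genes were higher in fibroblasts, and none was lower, where 13.6% of all genes tested were higher and 18.7% lower and the median log2 fold over all genes was −0.17. The levels of this age are among those by which the genes were chosen, so nothing is read from this count or from the p-values of this age. The largest differences were in Dlk1 (3.96 ± 0.61, adjusted p = 1.5e-05), Magel2 (3.70 ± 0.96), Peg3 (3.42 ± 0.36, adjusted p = 5.1e-08), and Meg3 (3.00 ± 0.45, adjusted p = 1.0e-05, edgeR). Magel2 is among the 7, but it passed the filter on low counts only through this age, so no p is given for it. Cdkn1c (1.37 ± 0.29), Mest (1.37 ± 0.26), and Igf2 (1.28 ± 0.23) followed. H19 did not pass (0.63 ± 0.27, adjusted p = 0.0817, edgeR), although it did with a transcript length term (1.25, adjusted p = 0.00129). Grb10 (0.10 ± 0.24) and Plagl1 (0.04 ± 0.38) were level between the tissues within these errors.

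Peg3 and Meg3 were higher in fibroblasts at all 5 ages. The log2 fold of Peg3 was 3.27 ± 0.36, 4.07 ± 0.39, 3.11 ± 0.37, and 3.84 ± 0.38 from the 4-week to the 1.5-year samples, with an adjusted p of at most 3.3e-07 (edgeR). The log2 fold of Meg3 was 4.53 ± 0.48, 4.90 ± 0.51, 2.93 ± 0.48, and 4.58 ± 0.50 at the same ages, with an adjusted p of at most 2.3e-05 (edgeR). No heart of any age reached the lowest fibroblast sample of its age for either gene. With a transcript length term the log2 folds were smaller but still called at all 5 ages, at most 3.38 for Peg3 and 4.03 for Meg3, and 2.60 and 2.97 in the 1.5-year samples. The fibroblast markers, which sorting enriches, had a median log2 fold between 3.36 and 4.40 at the 5 ages.

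At 4 weeks, 3 genes were higher in fibroblasts and 2 lower, where 17.5% of all genes were higher and 18.6% lower. Dlk1 was higher in fibroblasts (2.07 ± 0.64, adjusted p = 0.0131, edgeR), a call lost without replicate 1 of 4-week fibroblasts (1.33, adjusted p = 0.129), without replicate 1 of the hearts (adjusted p = 0.0638), and without replicate 3 of the hearts (adjusted p = 0.0647). Igf2 and H19 were lower in fibroblasts (−0.95 ± 0.22, adjusted p = 0.00144, and −1.64 ± 0.28, adjusted p = 3.7e-05, edgeR). H19 was also lower in fibroblasts at 14 weeks (−1.64 ± 0.32, adjusted p = 0.000228), 1 year (−3.23 ± 0.35, adjusted p = 6.4e-08), and 1.5 years (−2.77 ± 0.34, adjusted p = 4.0e-07, edgeR). At 1 year fibroblasts had 10.4 and 12.7 CPM of H19 and hearts 148, 83.3, and 92.2 CPM.

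Igf2 did not keep 1 direction. It was higher in fibroblasts at 14 weeks (0.91 ± 0.25, adjusted p = 0.00477), lower at 1 year (−1.20 ± 0.26, adjusted p = 0.000647), and not called at 1.5 years (0.22 ± 0.25, adjusted p = 0.527, edgeR). At 14 weeks fibroblasts had 66.03 and 57.2 CPM and hearts 27.8 to 38.6 CPM, and at 1 year fibroblasts had 29.9 and 43.4 CPM and hearts 66.5 to 118 CPM, with no overlap at either age. The call of 14 weeks was lost without replicate 4 of the fibroblasts (0.81, adjusted p = 0.0574) and with a transcript length term (0.65, adjusted p = 0.0873).

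At 14 weeks 5 genes in all were higher in fibroblasts and 1 lower, where 17.1% of all genes were higher and 17.7% lower. At 1 year 4 were higher and 2 lower (16.7% and 15.7% of all genes), and at 1.5 years 6 were higher and 1 lower (21.0% and 17.9%). Mest was higher in fibroblasts at each of these ages (1.03 ± 0.29, 1.04 ± 0.29, and 1.14 ± 0.29), Plagl1 at 14 weeks and 1.5 years (1.11 ± 0.43 and 1.43 ± 0.43), Grb10 at 1 year and 1.5 years (1.43 ± 0.27 and 0.95 ± 0.27), and Cdkn1c at 1.5 years (0.93 ± 0.31). With a transcript length term, Plagl1 no longer passed at 14 weeks or 1.5 years (0.76, adjusted p = 0.154, and 0.70, adjusted p = 0.170), nor did Grb10 at 1.5 years (0.34, adjusted p = 0.217), while Cdkn1c passed at 4 weeks, 14 weeks, and 1 year as well. Without replicate 4 of 14-week fibroblasts, 3 genes were called at 14 weeks, with Mest at an adjusted p of 0.168, and Plagl1 was also lost without fibroblast replicate 6 (0.211) or heart replicate 1 (0.115) or 3 (0.0908). Mest at 1 year was lost without fibroblast replicate 4 (adjusted p = 0.0603). Without replicate 5 of 1.5-year fibroblasts, 4 genes were called at 1.5 years, with Mest at an adjusted p of 0.108 and Plagl1 at 0.115. Cdkn1c at 1.5 years was lost without that sample (0.0662), fibroblast replicate 4 (0.0766), or heart replicate 2 (0.0674). Magel2 had at most 2 counts in every sample after postnatal day 1, and no difference between tissues was detectable at this depth.

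Within the clusters, levels of 2 genes were compared per kb of annotated exon. Igf2 and H19 are read from opposite parental chromosomes. The ratio of Igf2 to H19 was 0.425, 0.452, and 0.461 in fibroblasts of postnatal day 1 and lay between 1.00 and 3.62 in the 9 later fibroblast samples. In hearts it was 0.255 to 0.313 at postnatal day 1 and 0.761 to 0.891 at 4 weeks. It was 0.336 to 0.447 in 14-week hearts, 0.317 to 0.343 in those of 1 year, and 0.192 to 0.249 in those of 1.5 years. Every later fibroblast sample thus lay above every heart.

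For Dlk1 and Meg3, also read from opposite chromosomes, the ratio was 4.85, 5.41, and 9.26 in fibroblasts of postnatal day 1 and between 0.00627 and 0.0476 at later ages. In hearts it was 2.82 to 3.69 at postnatal day 1 and 0.0317 to 0.867 later. The 2 genes of this cluster therefore changed order, with Dlk1 above Meg3 in every sample of postnatal day 1 and below it in every later sample. In later samples the numerator rested on as few as 8 counts of Dlk1. The change of these ratios after postnatal day 1 follows from the fall for which the genes were chosen and was not tested.

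**Figure D4:**
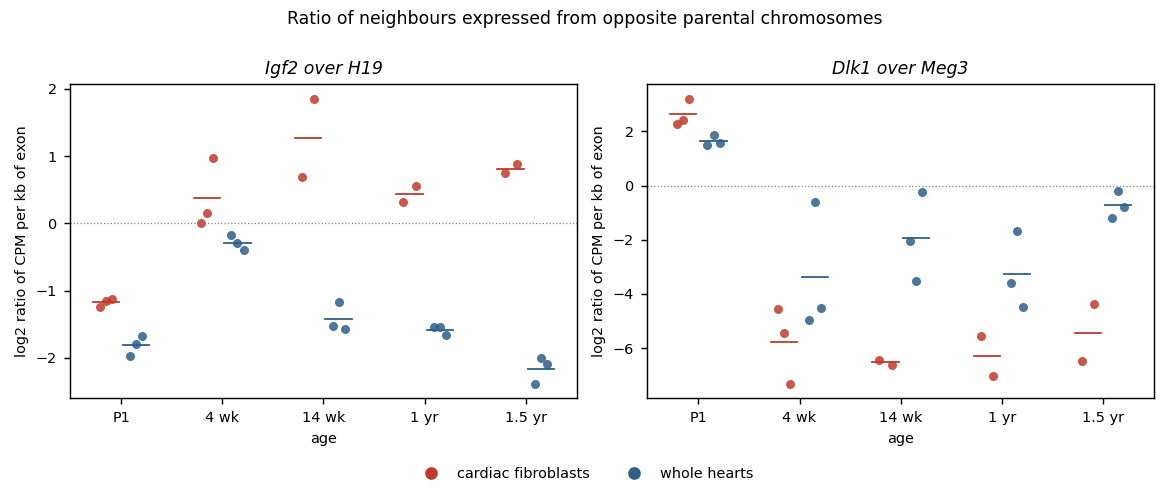
Log2 ratio of Igf2 to H19 (left) and of Dlk1 to Meg3 (right), from CPM per kb of exon, in each sample by age, with group means as short lines and the dotted line at equal levels. In fibroblasts (red) Igf2 over H19 lies below 0 at postnatal day 1 and at or above 0 later, whereas in hearts (blue) it lies below 0 at all ages; Dlk1 over Meg3 lies above 0 only at postnatal day 1.

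Across the 12 fibroblast samples and the 15 hearts, log2 levels of 9 of the genes, Magel2 being at the limit, had Pearson's r between 0.784 and 0.992 in fibroblasts and between 0.746 and 0.962 in hearts over their 36 pairs. These r are descriptions, since all points share the difference between postnatal day 1 and later ages. Among 12191 genes ranked by the lower of the 2 tissue values of r, H19 was the nearest neighbor of Igf2 (0.991 in fibroblasts and 0.956 in hearts), followed by Plagl1 and Mest. Tead2, a transcription factor of the Hippo pathway, was nearest to H19 (0.977 and 0.983), and Csrp1, a LIM domain protein, nearest to Dlk1 (0.962 and 0.943). Igf2bp3, which encodes an RNA-binding protein of Igf2 mRNA, was nearest to Plagl1 (0.958 and 0.952), and Ncam1, an adhesion molecule, was nearest to both Peg3 (0.964 and 0.962) and Mest (0.995 and 0.957). The nearest gene was Plagl1 for Meg3 (0.932 and 0.962), Gyg for Cdkn1c (0.925 and 0.925), and Ddb1 for Grb10 (0.953 and 0.941).

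A wider list of 62 other imprinted genes was then examined, of which 54 were in the tables and 52 were tested in each tissue. From postnatal day 1 to 4 weeks, 13 fell and 6 rose in fibroblasts, where 6.20% of all genes fell and 9.28% rose. In hearts 7 fell and 5 rose, where 6.10% of all genes fell and 12.1% rose. The median log2 change was −0.13 in fibroblasts and −0.55 in hearts, against 0.00 and −0.09 over all genes tested. With scaling by library size only, which shifted heart changes by −0.51 on the log2 scale, 18 fell and 1 rose in hearts. The overlap between the tissues is given without the same share over all genes, so nothing is read from it. Both tissues called 5 of these genes, 26.3% of those called in fibroblasts and 41.7% of those in hearts, and the sign was the same for all 5. The genes were Igf2r, Slc38a4, Rian, and Ppp1r9a, which fell, and Cd81, which rose except that in hearts it was at −0.13 with library size only (adjusted p = 0.517). The heart call of Cd81 was lost without any 1 of the 6 samples (adjusted p from 0.0522 to 0.138). Ppp1r9a was lost in fibroblasts without replicate 3 of 4 weeks (0.0502) or replicate 1 of postnatal day 1 (0.0558), and in hearts without replicate 2 of either age (0.0672 and 0.117) or replicate 3 of postnatal day 1 (0.0539).

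Neighbors of the 10 genes in the same clusters did not all follow them. Rian, a noncoding RNA downstream of Meg3, fell in fibroblasts from 169 to 296 CPM at postnatal day 1 to 85.8 to 124 CPM at 4 weeks (−1.07 ± 0.20, SE, adjusted p = 0.00273, edgeR). In hearts Rian fell from 35.7 to 51.8 CPM to 2.55 to 8.88 CPM (−3.10 ± 0.79, adjusted p = 0.0109, edgeR). Near Magel2, Ndn, a MAGE family gene like it, fell in fibroblasts from 115 to 122 CPM to 50.3 to 78.2 CPM (−0.79 ± 0.17, adjusted p = 0.00757, edgeR), and did not pass in hearts (−0.97 ± 0.42, adjusted p = 0.127, edgeR). Peg12 fell in fibroblasts (−1.91 ± 0.58, adjusted p = 0.0417), Snrpn, which encodes a splicing protein, rose in hearts (1.21 ± 0.35, adjusted p = 0.0221), and Atp10a, a lipid flippase, rose in fibroblasts from 3.55 to 11.8 CPM to 45.2 to 52.5 CPM (2.78 ± 0.33, adjusted p = 0.000102, edgeR). The call of Peg12 was lost without any 1 of the samples other than replicate 2 of 4 weeks (adjusted p from 0.0624 to 0.119), and that of Snrpn without heart replicate 2 of 4 weeks (0.109) or of postnatal day 1 (0.0686). Ube3a, the ubiquitin ligase of the same region, was not called in either tissue (−0.15 ± 0.15 and −0.49 ± 0.38).

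In the Peg3 cluster, Zim1, its maternally expressed neighbor, fell in fibroblasts from 138 to 209 CPM to 3.78 to 9.57 CPM (−4.75 ± 0.40, adjusted p = 5.6e-06, edgeR). Usp29, which starts beyond the short stretch printed above, fell in fibroblasts from 20.3 to 23.3 CPM to at most 1.42 CPM (−5.50 ± 1.71, adjusted p = 0.0498, edgeR). In hearts Usp29 was at −5.98 ± 1.97, with 361 to 499 counts at postnatal day 1 and 0 to 13 at 4 weeks. It passed the filter on low counts in hearts only through postnatal day 1, so no p is given for it there. The fibroblast call of Usp29 was lost without any 1 of the samples other than replicate 2 of 4 weeks (adjusted p from 0.0794 to 0.0986). On distal chromosome 7, Kcnq1ot1, the antisense RNA that lies within Kcnq1 beside Cdkn1c, fell in hearts (−2.14 ± 0.54, adjusted p = 0.0102) and was level in fibroblasts (−0.07 ± 0.39, adjusted p = 0.960, edgeR). Osbpl5 rose in fibroblasts (0.62 ± 0.11, adjusted p = 0.00263) and was at −0.52 ± 0.23 in hearts (adjusted p = 0.129, edgeR), and Nap1l4 and Tssc4 were called in neither tissue. Ddc, aromatic L-amino acid decarboxylase, next to Grb10, fell in hearts from 121 to 144 CPM to 6.83 to 11.2 CPM (−3.72 ± 0.80, adjusted p = 0.00336, edgeR), and Copg2, next to Mest, was called in neither tissue. The strand setting of the counting is not given in the sources used here, so that reads of Kcnq1ot1 and Kcnq1, and of other overlapping or antisense pairs, cannot be told apart.

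Among the other imprinted genes that were called, the largest falls in fibroblasts were in Nnat, which was at 6.97 to 12.6 CPM and then at most 1 count (at least 279-fold lower), Usp29, and Zim1, and the largest rises in Atp10a, Impact (1.11 ± 0.23), and Pon3 (0.92 ± 0.17). In hearts, among the genes that were called, the largest falls were in Ddc, Rian, and Kcnq1ot1 and the largest rises in Peg13 (1.44 ± 0.21), Snrpn, and Blcap (0.96 ± 0.19).

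**Figure D5:**
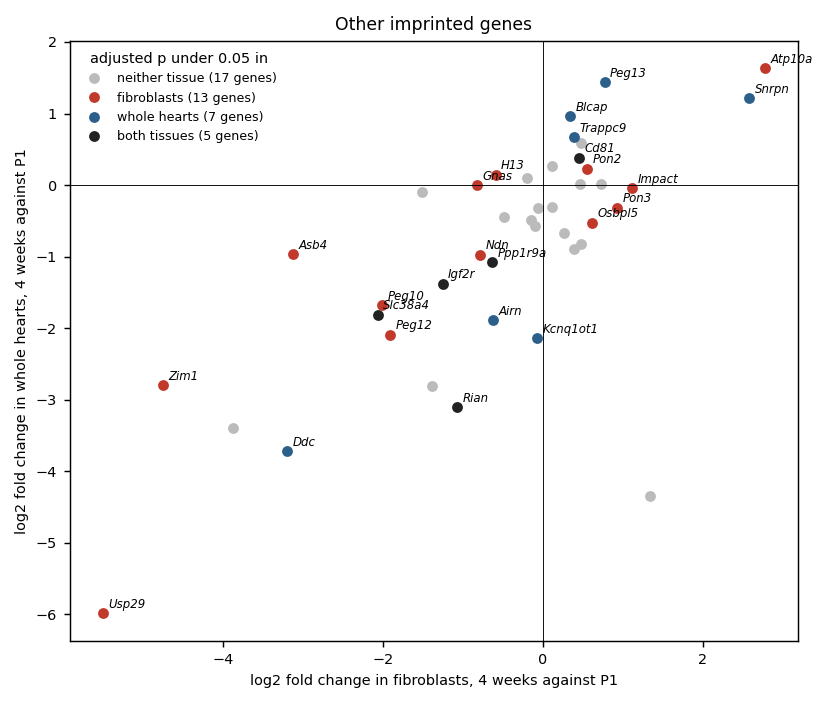
Log2 fold change from postnatal day 1 to 4 weeks in fibroblasts (horizontal) and whole hearts (vertical) for 42 other imprinted genes tested in both tissues, whose mean reached 1 CPM at either age and which lay above the limit of 3 counts at both ages in both tissues. Colors mark the tissue in which the adjusted p was under 0.05, with 17 genes called in neither, 13 in fibroblasts, 7 in hearts, and 5 in both; Usp29 and Zim1 lie farthest to the left.

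The receptors, signaling proteins, and mRNA-binding partners of IGF2 were followed as a list of 11 genes. From postnatal day 1 to 4 weeks, 6 of 9 tested fell in fibroblasts and none rose, where 6.20% of all genes fell and 9.28% rose. In hearts 6 of 10 fell and Irs2 rose, where 6.10% of all genes fell and 12.1% rose. The same 6 genes fell in both tissues. This list, like the other gene lists, was chosen with earlier results of these data known, and nothing is read from its counts. In fibroblasts Hmga2 and Igf2bp1 had at most 1 count at 4 weeks, so their calls rest on the counts of postnatal day 1. In hearts of 4 weeks Hmga2 had no counts and Igf2bp1 had 0 to 46 counts, so their heart calls rest on postnatal day 1 as well. Igf2bp1, which binds Igf2 mRNA, was at 18.95 to 40.4 CPM in fibroblasts of postnatal day 1 and at most 1 count at 4 weeks, at least 791-fold lower. Igf2bp3 fell from 36.6 to 39.3 CPM to at most 0.728 CPM in fibroblasts (−6.63 ± 1.05, adjusted p = 0.00150) and from 27.2 to 35.6 CPM to at most 1.32 CPM in hearts (−5.69 ± 1.12, adjusted p = 0.00167, edgeR). Hmga2, a chromatin protein of fetal tissues, was at 1.37 to 13.01 CPM in fibroblasts of postnatal day 1 and had no counts at 4 weeks in either tissue. The receptors fell less. Igf2r, the clearance receptor of IGF2 and itself imprinted, fell by 1.26 on the log2 scale in fibroblasts and by 1.38 in hearts, and Igf1r, the signaling receptor, fell by 0.48 and by 1.20. The calls of Igf1r in both tissues, and of Igf2bp1, Igf2bp2, and Irs2 in hearts, were each lost without any of several single samples, with adjusted p from 0.0729 to 0.119 for Igf1r in fibroblasts and from 0.0647 to 0.0983 in hearts, up to 0.0782 for Igf2bp1, 0.114 for Igf2bp2, and 0.154 for Irs2.

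After 14 weeks, Irs2, a docking protein of the insulin and IGF1 receptors, fell in hearts at 1 year (−1.70 ± 0.27, adjusted p = 0.00913) and at 1.5 years (−2.79 ± 0.28, adjusted p = 0.000369, edgeR), over the intervals in which Igf2 and H19 rose. Irs1 fell in hearts in both comparisons as well (−1.34 ± 0.24 and −1.02 ± 0.24), and Igf2r (−1.29 ± 0.23) and Insr, the insulin receptor (−1.42 ± 0.30), at 1.5 years. The change of Irs2 from 14 weeks to 1.5 years differed between the tissues by 4.39 ± 0.48, fibroblasts minus hearts (adjusted p = 1.35e-05, edgeR interaction term), and in fibroblasts Irs2 rose over that interval (1.62 ± 0.38, adjusted p = 0.0422), a call lost without any 1 of the 4 samples (adjusted p from 0.0908 to 0.334). With the transcript length term, Irs2 at 1.5 years was still called in hearts (−2.10, adjusted p = 0.00329) and between tissues (3.86, adjusted p = 0.000293), whereas Igf2r (−0.41, adjusted p = 0.229), Insr (−0.54, adjusted p = 0.0759), and Irs1 (−0.07, adjusted p = 0.920) were not called in hearts. Irs1 at 1.5 years was also lost without replicate 3 of 14 weeks (0.0756). At 1 year Irs1 was lost without any 1 of the samples other than replicate 2 of 14 weeks (adjusted p from 0.0526 to 0.150), and Irs2 without replicate 1 of 1 year (0.0647) or replicate 2 of 1 year (0.05002).

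Of 10 genes that read, copy, or protect methylation imprints, 4 fell and 1 rose in fibroblasts and 3 fell in hearts from postnatal day 1 to 4 weeks, beside 6.20% of all genes lower and 9.28% higher in fibroblasts and 6.10% lower and 12.1% higher in hearts. Zfp57, a zinc finger protein that guards methylated imprints, fell in both (−3.16 ± 0.82, adjusted p = 0.0192, and −2.47 ± 0.83, adjusted p = 0.0484, edgeR). Trim28, its corepressor, and Uhrf1, which guides Dnmt1 in copying methylation, fell in both tissues as well, Dnmt1 fell in fibroblasts (−0.78 ± 0.16), and Cbx5, a heterochromatin protein, rose in fibroblasts (1.01 ± 0.11). In hearts Cbx5 had the opposite sign and narrowly missed (−0.79 ± 0.27, adjusted p = 0.0511, edgeR). With single samples left out, the adjusted p reached 0.0702 for Zfp57 in fibroblasts and, in hearts, 0.130 for Zfp57, 0.166 for Uhrf1, and, without replicate 2 of postnatal day 1, 0.0633 for Trim28. Of 10 proliferation genes, 4 fell in fibroblasts and 6 in hearts over this interval, beside the same 6.20% and 6.10% of all genes, with Mki67 at −2.10 ± 0.37 and −1.95 ± 0.61, the latter a call lost without any 1 of 5 of the 6 hearts (adjusted p from 0.0581 to 0.104). The call of Cdk1 was lost without any 1 of the hearts (adjusted p from 0.0561 to 0.106, edgeR). In fibroblasts Cdk1 was lost without any of several single samples (0.0635 to 0.0909), and Tpx2 without replicate 2 of 4 weeks (0.0514). From 4 to 14 weeks, when Plagl1, Mest, and Peg3 fell in fibroblasts and Igf2, Mest, and H19 in hearts, proliferation genes fell as well. In fibroblasts 5 of the 10 fell, where 2.08% of all genes did, and 4 in hearts, where 0.85% did. Without single 4-week fibroblast samples, Birc5 (adjusted p up to 0.0757) and Tpx2 (0.0553, edgeR) were lost. Without single hearts, Cdk1 (up to 0.172) and Top2a (up to 0.0945, edgeR) were lost. Omitting 1 of the 14-week fibroblast samples leaves 1 sample at that age. Such fits cannot decide whether a call holds, so only log2 changes are given for them. Without replicate 6 of 14-week fibroblasts, Cdk1 was at −3.35 and Tpx2 at −1.91, against −4.17 and −2.45 with all samples. Birc5 was at −3.53 without replicate 4 and −6.55 without replicate 6, against −4.34, and Mki67 was at −2.89 without either, against −2.89. The part of the proliferation genes in the changes of the imprinted genes was not tested.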

How the data were processed

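The deposited files hold raw read counts per gene, which the authors made from polyA RNA-Seq reads with STAR 2.5.3a on mm10, in 1 table for each tissue. The strand setting and annotation version are not given in the sources used here. Counts were fitted in edgeR 4.0.16 (R 4.3.3) with TMM scaling, filterByExpr, and the quasi-likelihood F test, with 1 model per tissue and 1 joint model for the tissue and interaction tests, testing 18759, 17995, and 20650 genes. P-values were adjusted by Benjamini-Hochberg over all genes. Nothing in the labels ties a sample to a separate animal. The paper states 3 animals per age and 3 fibroblast sets from separate hearts, whereas 2 fibroblast samples were found at each of the 3 later ages. Xist and Ddx3y were both present in every sample of postnatal day 1 and 4 weeks, so a sample of these ages may hold cells of more than 1 animal. The p-values therefore measure the spread between these samples. No 2 replicates held identical counts. Levels of at most 3 counts were treated as the limit, and limits cover counting error only. The SE come from the quasi-likelihood F test and include the spread between samples. The 10 genes and all gene lists were chosen with earlier results of these data known. All 10 genes are described, and of the other imprinted genes those called with the 3 largest changes in each direction and neighbors of the 10 genes. Gene positions are from GENCODE M21 (GRCm38). Alternatives were DESeq2 1.42.0, other scalings and filters, single-sample omissions, and, chosen after the data were seen, a transcript length offset. The test scripts were tested on simulated data.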

Additional observations from a re-analysis of the deposited data

Results flagged for a closer look

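The change of Igf2 from 4 to 14 weeks differed between the tissues by 1.86 on the log2 scale, fibroblasts minus hearts (adjusted p = 0.00662, edgeR interaction term). Igf2 went from 67.6 to 107 CPM at 4 weeks to 57.2 and 66.03 CPM at 14 weeks in fibroblasts, and from 142 to 177 CPM to 27.8 to 38.6 CPM in hearts. The difference was 1.76 (adjusted p = 0.0560) without replicate 4 of 14-week fibroblasts.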

How the results depend on the processing

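Groups of 2 fibroblast samples limit the later ages, and Magel2 and Dlk1 after postnatal day 1 rest on few counts. Of the 10 genes, 3 were called in fibroblasts from 4 to 14 weeks, against 5 with DESeq2, 1 with only the groups compared, and 0 to 3 with 1 sample left out. From 14 weeks to 1 year 1 was called in fibroblasts, against 3 with DESeq2 or only the groups compared, 2 with median-of-ratios size factors, library size only, at least 10 counts in every sample, or no mitochondrial counts, and 0 with the transcript length offset or with any 1 sample left out. From 14 weeks to 1.5 years 1 was called, against 0 with the length offset and 0 to 1 with 1 sample left out. In hearts 3 were called from 4 to 14 weeks (5 with DESeq2, 2 to 5 with 1 sample left out), 2 at 1 year (0 to 2), and 2 at 1.5 years (4 with DESeq2 or at least 10 counts in every sample, 2 to 3 with 1 left out). Between tissues, omissions gave 7 at postnatal day 1, 4 to 5 at 4 weeks, 3 to 6 at 14 weeks, 5 to 7 at 1 year, and 4 to 7 at 1.5 years, where only the groups compared gave 4. The interaction tests gave 0 to 1 with 1 sample left out. Of the other imprinted genes, 19 were called in fibroblasts (16 to 19) and 12 in hearts (8 to 12, and 19 with library size only, where Cd81 turned to −0.13). Library size only moved the median of all genes by −0.51 in hearts from postnatal day 1 to 4 weeks and by 0.35 to 0.67 between tissues at the later ages. Causes were not tested.

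Deviations from group means were correlated between samples with the same replicate number. Samples of different ages, which cannot be 1 animal, gave −0.056 to 0.115 in fibroblasts and −0.122 to 0.245 in hearts. Hearts and fibroblasts of the same age gave −0.031 to 0.028. The numbers were therefore not taken to pair samples. With the replicate block, 18 other imprinted genes were called in fibroblasts and 12 in hearts, 3, 2, and 2 of the 10 genes in the heart comparisons of later ages, 8 between tissues at postnatal day 1, with H19 added (adjusted p = 0.0284), and 4 at 4 weeks, without Dlk1 (adjusted p = 0.361). No paired analysis was possible for the other comparisons because their groups share fewer than 2 replicate numbers.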
